A study of Sus scrofa with 48 samples.

Results

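The genes described here belong to cholesterol synthesis and its control, measured in the whole blood of growing pigs. They were chosen by name from a list of 8 genes, and a spot of the array was a member when its gene name was on that list and the authors had retained the spot. The array carried 18 such spots, of which 12 were among the 37113 retained spots, and these 12 measured 5 genes: SQLE with 4 spots and INSIG1, FDFT1, FDPS and SREBF2 with 2 each. HMGCS1, IDI1 and DHCR7 had no retained spot, so they have no value in the comparisons. No receptor for cholesterol uptake was on the list of 8, and uptake genes are given further on as other genes of the pathway.

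Blood was taken at 132 days of age, after a meal and at slaughter, from 48 castrated male French Large White pigs of 2 lines selected in opposite directions for residual feed intake (RFI), the part of feed intake that growth and maintenance do not account for. A low RFI pig is the more efficient animal. The 4 groups of 12 pigs were low RFI pigs (RFIneg in the labels) fed a high fat, high fiber diet (HF), low RFI pigs fed a low fat, low fiber diet (LF), and high RFI pigs (RFIpl) fed HF or LF. Each pig gave 1 RNA sample and 1 array. With 1 population for each direction of selection, an effect of selection and an effect of drift between the lines cannot be told apart. Whole blood mixes reticulocytes, granulocytes, monocytes, lymphocytes and platelets, and in such samples fewer cells of a type and less RNA per cell cannot be told apart.

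Cells make cholesterol from acetyl-CoA through mevalonate. HMGCS1 acts at the start, IDI1 and FDPS build farnesyl diphosphate, FDFT1 joins farnesyl units into squalene, SQLE adds the oxygen that lets squalene close into a ring, and CYP51, MSMO1, DHCR7 and others turn the ring into cholesterol. The genes of this route are switched on together by the transcription factor SREBP2, the product of SREBF2. When sterols are plentiful, the INSIG1 protein holds the SREBP escort SCAP in the endoplasmic reticulum, and INSIG1 is itself a target of SREBP. In blood this route runs in nucleated cells, while mature red cells carry cholesterol in their membrane and plasma lipoproteins carry it between tissues.

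The probes are shown because spots of the same gene did not always give the same result. Each is 60 bases long, printed 5′ to 3′ as the scanner files give it. The 4 SQLE probes are shown first, and the capitals mark a run of 57 bases that a pair of them share, so that these 2 spots read nearly the same stretch of the transcript.
A_72_P088686: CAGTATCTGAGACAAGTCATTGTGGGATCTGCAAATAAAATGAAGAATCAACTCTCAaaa
A_72_P444903: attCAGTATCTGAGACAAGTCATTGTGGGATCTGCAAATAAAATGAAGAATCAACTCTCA
A_72_P705210: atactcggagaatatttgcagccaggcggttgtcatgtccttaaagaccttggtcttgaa
O12690: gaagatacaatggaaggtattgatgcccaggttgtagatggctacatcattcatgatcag

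The 2 INSIG1 probes and the 2 SREBF2 probes share no run longer than 5 and 4 bases. One INSIG1 probe is printed whole, and bases 31 to 60 are printed of the others, with the letters AATAAA or ATTAAA, those of the polyadenylation signal, in capitals.
INSIG1 A_72_P186291: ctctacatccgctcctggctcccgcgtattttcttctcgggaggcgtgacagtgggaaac
INSIG1 A_72_P442208: tcactgcATTAAAcatcgggtgtttctaaa
SREBF2 O8965: AATAAAcacagatcggtaccacccaaaaaa
SREBF2 A_72_P255532: cctgtttttatcaggctttctctgggggac
On the printed strand, AATAAA stood in 12.0% of the retained probes and in 4 of the 12 member probes, where it marks no more than these letters, and ATTAAA stood in 4.46% of them and in 1 member probe. The reverse complement of AATAAA was in 4.34% and that of ATTAAA in 3.08% of the retained probes, and in 0 of the 12 members. The pair of overlapping SQLE probes holds AATAAA within the shared run.

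The retained signal was 5.91 to 16 times the local background as medians per array, and every one of the 12 member spots was well above background on all 48 arrays. Values are log2 pixel intensities (the median over each spot) centred on the array's own median, so 0 is the typical retained spot. The value of a gene is the mean of its retained spots. The line effect is low RFI minus high RFI, tested with limma together with diet and the interaction, and P-values were adjusted by Benjamini-Hochberg over all 37113 spots or all 27742 gene names. Over all spots the median line effect was 0.02, a shift much smaller than the line effects of the named genes called below. Some line effects that were not called, such as -0.07 for FDPS, are nearer to it in size.

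SQLE, the squalene epoxidase, was underexpressed in low RFI pigs. Its gene value ranged from -0.88 to 0.22 with a median of -0.54 in low RFI HF pigs and from -0.73 to 0.03 with a median of -0.48 in low RFI LF pigs. In high RFI pigs it ranged from -0.49 to 0.33 with a median of -0.13 under HF and from -0.58 to 0.24 with a median of -0.17 under LF. The lines overlapped, and 21 of 24 low RFI pigs were below the median of the high RFI pigs. The line effect was -0.29 ± 0.08 on the log2 scale (SE, n = 24 pigs per line), an FC of -1.23 where the minus sign means lower in low RFI pigs, with an adjusted P-value of 0.031 by limma. The difference was negative on each of the 6 slides, from -0.54 to -0.14.

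The other enzymes of the group differed less. FDFT1, the squalene synthase, had medians of 1.13 and 1.37 in low RFI pigs fed HF and LF and of 1.38 and 1.5 in high RFI pigs, with ranges of 0.75 to 1.72 over the low RFI line and 0.97 to 2.07 over the high RFI line. Its line effect was -0.19 ± 0.09 (SE, n = 24 pigs per line, unadjusted P-value 0.039, adjusted P-value 0.37 by limma), negative on 6 of 6 slides but not past the threshold. For FDPS, the farnesyl diphosphate synthase, the ranges were 1.03 to 2.06 in low RFI and 1.07 to 2.33 in high RFI pigs and the medians 1.44 and 1.51. The line effect of FDPS was -0.07 with a 95% confidence interval of -0.23 to 0.09 and an adjusted P-value of 0.92 by limma, so a decrease of up to 0.23 is within its error.

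Of the 5 genes, 1 was called for line at an adjusted P-value under 0.05, against 2.77% of all 27742 gene names and 1.46% for genes lower in low RFI pigs. All 5 had a lower mean in low RFI pigs, and their median line effect was -0.13 against 0.02 over all gene names.

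**Figure D1:**
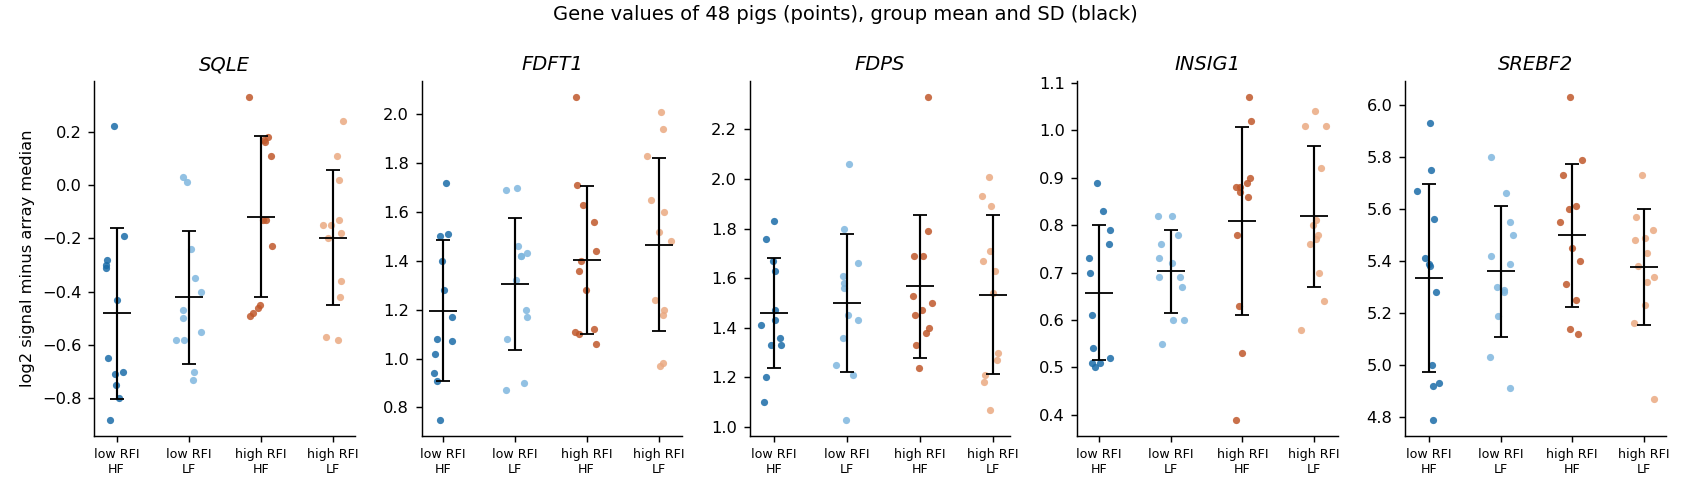
Gene values (log2 signal minus array median, vertical axis) of the 5 measured genes in the 4 groups of 12 pigs, 1 point per pig, with the group mean and SD in black. The SQLE means are -0.48 and -0.42 in the low RFI groups and -0.12 and -0.20 in the high RFI groups, and pigs of all groups overlap in each panel.

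At the level of single spots, 1 of 12 member spots was called at an adjusted P-value under 0.05, against 2.77% of all spots and 1.44% in its direction, lower in low RFI pigs. The criterion of the methods, a P-value under 0.01 with an FC above 1.1, was met by 6 of 12 member spots, all lower in low RFI pigs, against 5.78% of all spots in either direction and 3.09% in that direction. These 6 were the 4 SQLE spots, 1 INSIG1 spot and 1 SREBF2 spot, and 10 of the 12 spots had a lower mean in low RFI pigs. Spots of 1 gene read the same RNA sample and are not independent of each other.

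The 4 SQLE spots had line effects of -0.36 (A_72_P444903), -0.34 (A_72_P088686), -0.27 (A_72_P705210) and -0.20 (O12690), with adjusted P-values by limma between 0.05 and 0.1, none of them under the threshold. A_72_P705210 and O12690 were dim, with median pixel intensities of 58 to 169 and of 52 to 144 over the arrays. With the background-corrected signal in place of the raw intensity their line effects were -0.50 and -0.43. The spots that share 57 bases varied together over pigs with r = 0.98 (Spearman's rho = 0.98), while A_72_P705210 correlated with the other 3 SQLE spots at r = 0.38 to 0.44.

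INSIG1, the sterol-dependent anchor of SCAP, gave opposite signs at its 2 spots. At A_72_P442208 the values in low RFI pigs ran from -1.07 to -0.18 with medians of -0.79 under HF and -0.63 under LF. In high RFI pigs they ran from -0.99 to 0.37 with medians of -0.35 and -0.18. The ranges of the lines overlapped widely, 22 of 24 low RFI pigs were below the high RFI median, and the line effect was -0.35 ± 0.09 (SE, n = 24 pigs per line, FC -1.28, adjusted P-value 0.011 by limma). At A_72_P186291, the brighter spot, the line medians were 2.06 in low RFI and 1.98 in high RFI pigs, within ranges of 1.72 to 2.37 and 1.67 to 2.35. Its line effect was 0.09 with a 95% confidence interval of -0.04 to 0.21.

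The line effects of the 2 INSIG1 spots differed by 0.44 on the log2 scale (permutation test of line within diet, 100000 permutations, two-sided p = 0.0009, 0.0036 after adjustment over the 4 genes with 2 spots). This test was chosen after the spot values were seen. Over pigs the 2 spots varied in opposite directions, with r = -0.37 and rho = -0.39 after the group means were subtracted (n = 48, permutation p = 0.012 and 0.0078). The mean of these spots, -0.13 ± 0.05 for line (SE, n = 24 pigs per line, unadjusted P-value 0.0052, adjusted P-value 0.12 by limma), joins these unlike readings.

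SREBF2, the gene of SREBP2, also had 1 spot below 0 and 1 above 0 for line, but there the spots were not shown to differ. At O8965 the values ran from 3.99 to 5.27 with a median of 4.51 in low RFI pigs and from 4.38 to 5.31 with a median of 4.76 in high RFI pigs. There 20 of 24 low RFI pigs were below the high RFI median, and the line effect was -0.26 ± 0.08 (SE, n = 24 pigs per line, FC -1.2, unadjusted P-value 0.0019, adjusted P-value 0.062 by limma). Over alternative settings of the processing and the fit, the adjusted P-value of O8965 ran from 0.0074 to 0.82. It was under the threshold in 6 of them and not in the other 6. At A_72_P255532 the medians were 6.16 and 6.15 and the line effect was 0.09 with a 95% confidence interval of -0.23 to 0.40. The difference between the 2 line effects, 0.35, did not pass the permutation test (two-sided p = 0.078, adjusted p = 0.16). For FDFT1 and FDPS the line effects of the 2 spots were within 0.06 of each other (permutation p = 0.67 and 0.23).

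**Figure D2:**
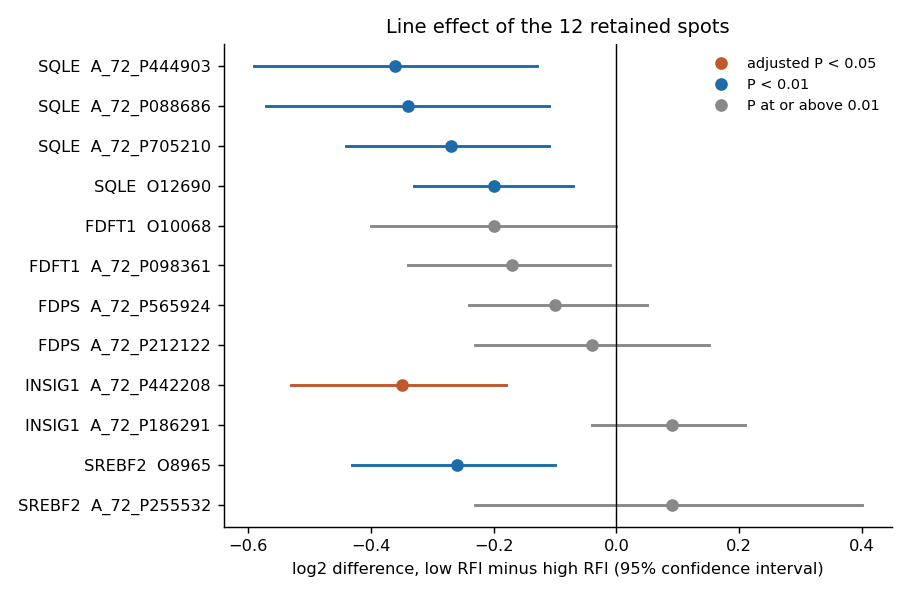
Line effect (low RFI minus high RFI, log2 scale, horizontal axis) of the 12 retained spots with 95% confidence intervals, coloured by P-value. The 4 SQLE spots lie between -0.36 and -0.20, and INSIG1 and SREBF2 each have 1 spot below 0 and 1 spot at 0.09.

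The count of called spots was sensitive to the settings. It was 5 with slide as a block and 4 to 6 with a background correction, in 2 of these 3 settings together with another normalization, against 1 as fitted, and the number past the criterion of the methods was 6 in all alternatives but the column as deposited, where it was 3. With the brightest spot of each gene in place of the mean, SQLE had a line effect of -0.36 and an adjusted P-value of 0.085 by limma, and its adjusted P-value over all alternatives ran from 0.0068 to 0.34, the highest with the damaged column left as deposited.

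No effect of diet on these genes passed a test. Of the 5 genes and of the 12 spots, 0 were called at an adjusted P-value under 0.05, against 0.0% of all spots and of all gene names, and 0 member spots met the criterion of the methods, against 0.245% of all spots. At an unadjusted P-value under 0.05 by limma there were likewise 0 member spots, against 1.64% of all spots. The effect of diet, HF minus LF, was 0.01 for SQLE (95% confidence interval -0.15 to 0.17) and -0.09 for FDFT1 (-0.26 to 0.09). It was 0.00 for FDPS (-0.17 to 0.16), -0.03 for INSIG1 (-0.12 to 0.07) and 0.05 for SREBF2 (-0.11 to 0.21), so diet effects of up to about those bounds are within the error.

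The interaction of line and diet was under a P-value of 0.01 for 0 of 12 member spots, against 0.264% of all spots, and for 0 of 5 genes, against 0.22% of all gene names. At an unadjusted P-value under 0.05 by limma it was likewise 0 of 5 genes, against 2.24% of all gene names. The SQLE line effect was -0.36 under HF and -0.23 under LF, with an interaction of -0.14 (95% confidence interval -0.46 to 0.19). For the other 4 genes the interaction lay between -0.14 and -0.04. The intervals are wide, and a difference between diets as large as the SQLE line effect itself is within that of SQLE.

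Other genes of the pathway were taken from lists of 67 names, of which 46 had a retained spot. At an adjusted P-value under 0.05, 3 of them were called for line, 2 lower and 1 higher in low RFI pigs, against 2.77% of all gene names in either direction and 1.46% lower in low RFI pigs. STARD4, a carrier that moves cholesterol between membranes, had medians of -1.46 and -1.15 and a line effect of -0.34 ± 0.09 (SE, n = 24 pigs per line, adjusted P-value 0.014 by limma). MYLIP, a ubiquitin ligase and a target of the sterol sensor LXR, had medians of 1.01 and 0.65. Its line effect over both diets was 0.34 ± 0.08 (SE, n = 24 pigs per line, adjusted P-value 0.0051 by limma). Under HF the MYLIP line effect was 0.56 (adjusted P-value 0.003 by limma). Under LF it was 0.11 (unadjusted P-value 0.29, adjusted P-value 0.82 by limma), so no MYLIP line difference was shown under LF. The MYLIP interaction of line and diet did not pass correction (unadjusted P-value 0.0051, adjusted P-value 0.89 by limma).

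Among 12 other names of synthesis enzymes, 11 had a lower mean in low RFI pigs, 1 was called, and the median line effect was -0.15. MVK, the mevalonate kinase, had a line effect of -0.24 and HSD17B7, a sterol ketoreductase, of -0.37, with unadjusted P-values of 0.0072 and 0.009 and adjusted P-values of 0.14 and 0.16 by limma. LSS, which closes the sterol ring, had -0.06 (95% confidence interval -0.20 to 0.08), which became -0.20 with the background-corrected signal and -0.27 with the column as deposited, with adjusted P-values of 0.36 to 1.0 by limma over the alternatives. The array names 1 enzyme as both MSMO1 and SC4MOL, which gave -0.16 and -0.20, and these names were picked out after their values were seen.

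Uptake genes had a median line effect of -0.07 over 11 names, of which 1, STARD4, was called. Regulators of SREBP and LXR had a median of 0.05 over 9 names, with -0.07 for SCAP, -0.05 for INSIG2 and 0.08 for SREBF1, none past the threshold, and MYLIP as the only call. The INSIG2 line effect became -0.15 with the background-corrected signal and -0.25 with the column as deposited, with adjusted P-values of 0.66 to 1.0 by limma over the alternatives. Efflux and esterification genes had a median of 0.04 over 7 names and 0 calls, although ABCA1, the exporter of cholesterol to HDL, had a line effect of 0.38 ± 0.14 (unadjusted P-value 0.0081, adjusted P-value 0.15 by limma). The ABCA1 difference ran from -0.09 to 1.06 between slides. The SREBP targets of fatty acid synthesis had a median of -0.02 over 7 names and 0 calls as gene values. The ELOVL5 value of 0.08 joined spots at 0.28 (A_72_P400463, adjusted P-value 0.043 by limma) and at -0.12 (O10347, adjusted P-value 0.76 by limma). For diet, 0 of the 46 names were called.

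**Figure D3:**
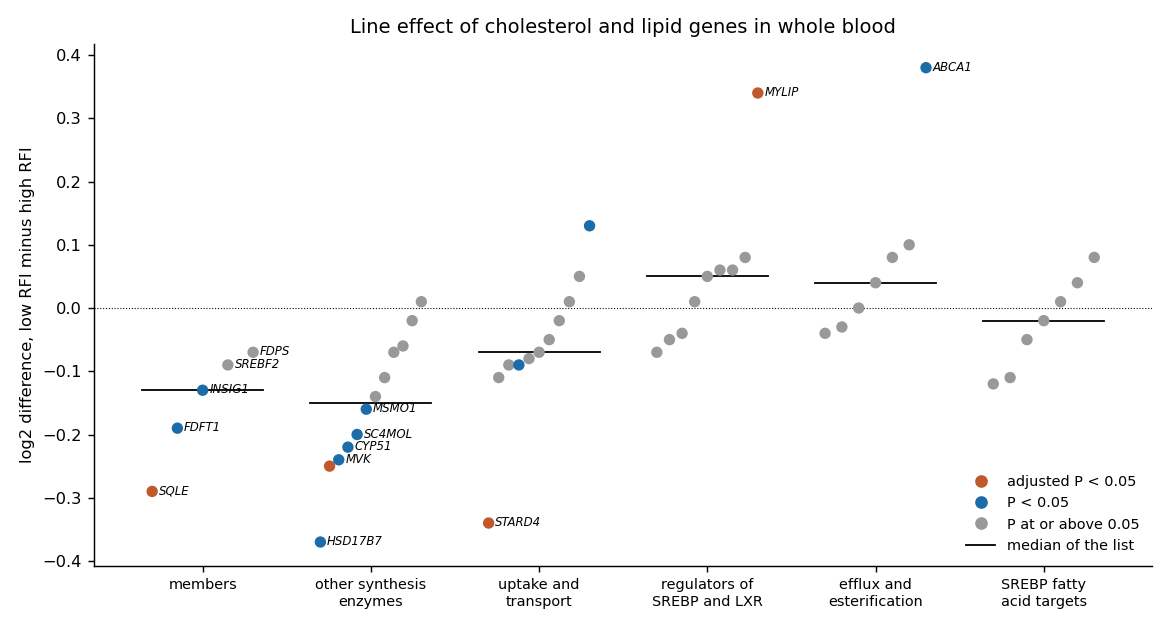
Line effect (log2 scale, vertical axis) of the 5 measured members and of 46 other names in 5 lists, 1 point per gene name, with the median of each list as a black line. Names are shown for the members and for some of the points with a P-value under 0.05. Medians are -0.13 for members and -0.15 for other synthesis enzymes, and between -0.07 and 0.05 for the other lists.

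Over the 48 pigs, the 3 measured enzymes SQLE, FDFT1 and FDPS varied together. With group means subtracted, SQLE and FDFT1 had r = 0.84 and rho = 0.85, SQLE and FDPS r = 0.83 and rho = 0.85, and FDFT1 and FDPS r = 0.87 and rho = 0.87. Each had a permutation p of 1e-05, the smallest that 100000 permutations can give, and 3.3e-05 after adjustment over the 10 pairs. Without the 2 pigs farthest from the median of the first gene r was 0.82, 0.83 and 0.86. Within the low RFI line the 3 correlations were 0.83, 0.84 and 0.85, within the high RFI line 0.86, 0.83 and 0.88, and with slide means subtracted 0.86, 0.83 and 0.88. Pigs share depth, labelling and the mix of blood cells across all genes, and over 8258 other named genes the median r with SQLE was 0.14.

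The regulators had lower r with the enzymes when they were taken as gene means. INSIG1 correlated with SQLE at r = 0.45 (rho = 0.46, permutation p = 0.0025, adjusted p = 0.0063), with FDFT1 at 0.40 and with FDPS at 0.35. Among the 8258 genes compared with SQLE, 23.9% had an r at or above that of INSIG1, while among those compared with INSIG1 1.27% had an r at or above that of SQLE, 2.75% that of FDFT1 and 4.84% that of FDPS. SREBF2 correlated with SQLE at r = -0.09 (rho = -0.13, permutation p = 0.56), with FDFT1 at -0.25 and with FDPS at -0.20, and none of these passed. In all, 6 of 10 pairs had an adjusted p under 0.05.

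Taken 1 spot at a time, a choice made after the gene means were seen, the picture divided. SREBF2 at O8965 correlated with SQLE at r = 0.67 (rho = 0.59), with FDFT1 at 0.57 and with FDPS at 0.68, while SREBF2 at A_72_P255532 had r = -0.44, -0.54 and -0.55. All 6 had permutation p between 1e-05 and 0.0033 and adjusted p of at most 0.0085 over 44 relations. INSIG1 at A_72_P442208 correlated with the same enzymes at r = 0.60, 0.54 and 0.55, with adjusted p of at most 0.00062. INSIG1 at A_72_P186291 had r = -0.24, -0.22 and -0.29, with adjusted p of 0.17, 0.19 and 0.09. The 2 spots that were lower in low RFI pigs, O8965 and A_72_P442208, correlated with each other at r = 0.47 (rho = 0.47, permutation p = 0.00091), and the other pair, A_72_P255532 and A_72_P186291, at r = 0.69 (rho = 0.72, permutation p = 1e-05).

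The spots divided likewise by their relation to markers of blood cells. The erythroid list holds hemoglobin genes and other genes of red cell precursors, 10 of 14 measured. A_72_P255532 of SREBF2 followed it at r = 0.89 (rho = 0.90, permutation p = 1e-05, adjusted p = 0.00011) and A_72_P186291 of INSIG1 at r = 0.60 (rho = 0.59, adjusted p = 0.00015). O8965 had r = -0.20 (adjusted p = 0.24) and A_72_P442208 r = -0.43 (adjusted p = 0.0079) with that list. A_72_P442208 had its highest r with the monocyte list, 0.61 (rho = 0.59, adjusted p = 0.00016), and O8965 with the B cell list, 0.56 (rho = 0.49, adjusted p = 0.0005, r = 0.42 without the 2 farthest pigs).

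**Figure D4:**
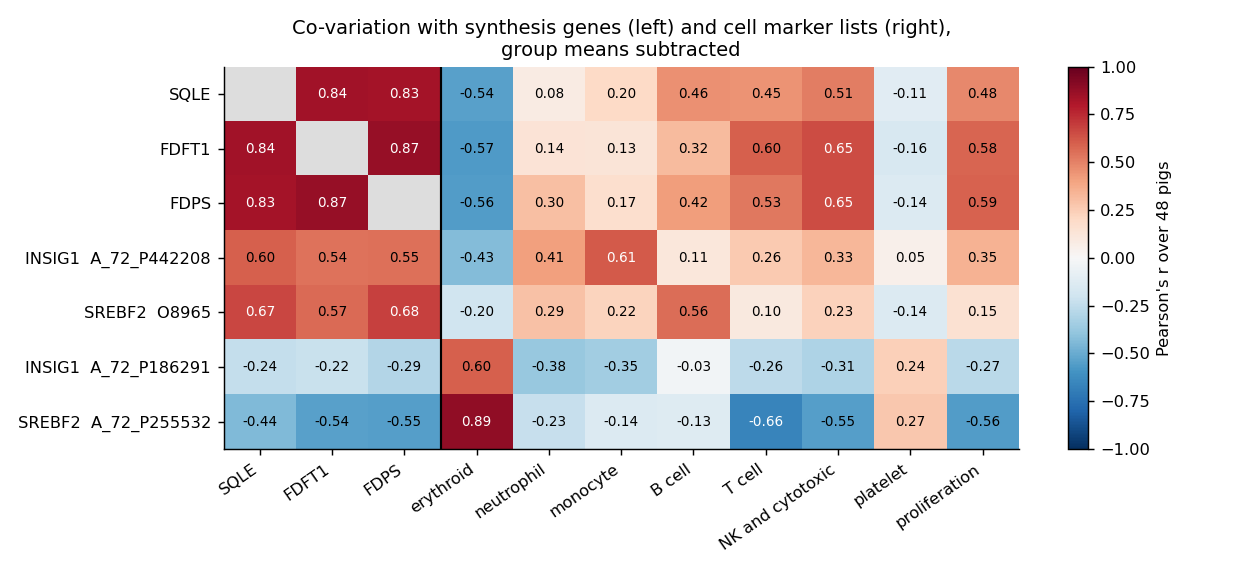
Pearson's r over 48 pigs, group means subtracted, of SQLE, FDFT1, FDPS and the single spots of INSIG1 and SREBF2 (rows) with the 3 enzymes and with 8 lists of blood cell markers (columns). The top 5 rows have r from 0.54 to 0.87 with the enzymes and from -0.57 to -0.20 with the erythroid list, and the bottom 2 rows have the opposite signs.

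The gene values of the enzymes were negatively related to the erythroid list and positively to lymphocyte and proliferation lists. With the erythroid list r was -0.54 for SQLE, -0.57 for FDFT1 and -0.56 for FDPS (rho = -0.55, -0.57 and -0.63, adjusted permutation p of 0.00065, 0.00027 and 0.00017 over 40 relations). With the NK and cytotoxic list r was 0.51, 0.65 and 0.65 (rho = 0.50, 0.54 and 0.60), and with the T cell list 0.45, 0.60 and 0.53 (rho = 0.47, 0.52 and 0.55). With the proliferation list r was 0.48, 0.58 and 0.59 (rho = 0.43, 0.53 and 0.50). All of these r had an adjusted permutation p of at most 0.0029, and the adjusted p of rho was at most 0.0071. SQLE and the B cell list had r = 0.46 (adjusted p = 0.0041) but rho = 0.30 (adjusted p = 0.078). That r fell to 0.30 without the 2 farthest pigs, so part of its size rests on them. With the same list FDFT1 had r = 0.32 and FDPS r = 0.42 (adjusted permutation p = 0.048 and 0.0041). Their rho was 0.24 and 0.34 (adjusted permutation p = 0.2 and 0.052). Of the 40 relations between the 5 genes and the 8 lists, 20 had an adjusted p under 0.05.

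Some markers of these lists were called for line, against 2.77% of all gene names and 1.46% lower in low RFI pigs, and the lists as such were not tested. The mean of the 6 measured B cell markers of 8 was 1.2 in low RFI and 1.4 in high RFI pigs, with group ranges of 0.92 to 1.87 (low RFI HF), 0.73 to 1.55 (low RFI LF), 1.2 to 1.7 (high RFI HF) and 1.22 to 1.59 (high RFI LF), and 5 of the 6 were lower in low RFI pigs, 3 of them called. The erythroid mean was 2.73 in low RFI and 2.60 in high RFI pigs, with group ranges of 2.05 to 3.29, 2.01 to 3.24, 2.31 to 3.26 and 1.76 to 2.87 in the same order, and 9 of 10 markers were higher in low RFI pigs, 1 of them called. For monocytes the means were 0.66 and 0.81 over 7 of 8 markers, 5 of them lower and 1 called lower. Of 8 measured neutrophil markers 6 were lower and 1 was called lower, with means of 3.67 and 3.91, and of 9 T cell markers 8 were higher and 1 was called higher, with means of 1.56 and 1.44. The NK and cytotoxic, platelet and proliferation lists had 0 calls at an adjusted P-value under 0.05 by limma, with line effects of -0.32 to 0.28, -0.09 to 0.03 and -0.01 to 0.14. The part of these lists in the line effects of SQLE, INSIG1 and SREBF2 was not tested.

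**Figure D5:**
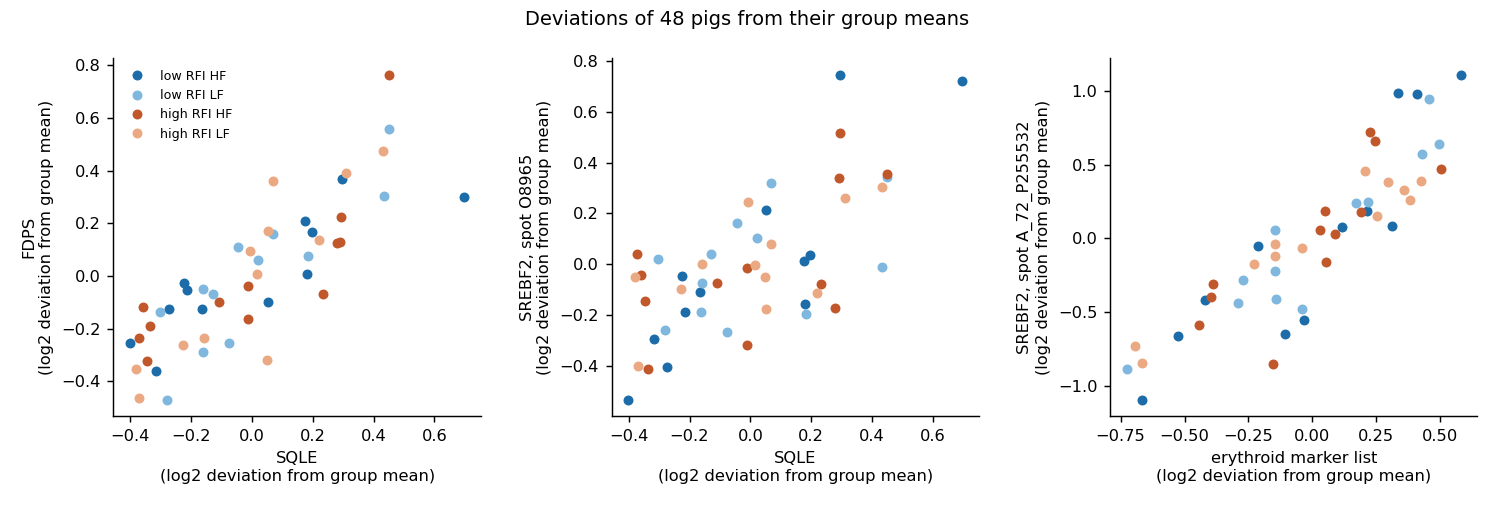
Deviations of 48 pigs from the mean of their group (log2 scale, 1 point per pig, coloured by group): FDPS against SQLE (r = 0.83), SREBF2 at spot O8965 against SQLE (r = 0.67) and SREBF2 at spot A_72_P255532 against the mean of the erythroid markers (r = 0.89). The points of the 4 groups lie along the same band in each panel.

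Across the pathway, SQLE had a positive correlation past an adjusted p of 0.05, over 230 relations, with 10 of the 12 other synthesis names, and so did FDFT1 and FDPS, where MSMO1 and SC4MOL are names of 1 enzyme. FDPS had a negative one with LSS (r = -0.44, adjusted permutation p = 0.0052). Such correlations were common in these data, since an r of 0.45 or more with SQLE was reached by 23.9%, of 0.40 or more with FDFT1 by 32.5% and of 0.35 or more with FDPS by 36.6% of the 8258 genes. INSIG1 had a positive correlation past that threshold with 6 of the 12 names, and SREBF2 a positive one with 2 and a negative one with 1. The gene most like SQLE among the 8258 compared was CYP51 (r = 0.87), which lies in the same pathway. SC4MOL had an r of 0.93 with SQLE but is an older symbol and was not among the genes compared. STARD4, which differed by line, had an r of 0.65 with SQLE, and MYLIP an r of 0.10.

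The nearest genes were ranked among the 8258 compared, which leave out the members themselves. For FDFT1 they were CYP51 (r = 0.85), COX5A, a subunit of cytochrome c oxidase (0.81), and G3BP2, an RNA-binding protein of stress granules (0.81). For FDPS they were CAPN1, a calcium-dependent protease (0.88), UBA1, the ubiquitin-activating enzyme (0.86), and CYP51 (0.85). INSIG1 as a mean was nearest to CSRNP1 (0.68), LRP10 (0.62), and PRR14 (0.61). SREBF2 as a mean was nearest to SREBF1 (0.90), its paralog, XRCC6, a DNA repair protein (0.88), and VPS28, a subunit of endosomal sorting (0.88). That mean joins the unlike spots O8965 and A_72_P255532, which had r = -0.23 with each other. It had r = 0.77 with the erythroid list and -0.60 with the T cell list, and the part of cell mix in its nearest genes was not tested. Of the 8258 genes, 0.0121% had an r with SQLE at or above that of FDFT1 and 56.7% had an r with SREBF2 at or above that of SQLE.

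The members without a retained spot had little signal. On the array HMGCS1 had 2 spots, well above background on 43 and 21 of 48 arrays, IDI1 had 1 spot, well above on 14 arrays, and DHCR7 had 1 spot, well above on 1 array. Their median pixel intensities over the arrays were 60.5 and 49.0 for HMGCS1, 47.0 for IDI1 and 36.2 for DHCR7, so no level can be given for these genes, and a dim spot says nothing of whether blood lacks the transcript. When all 60306 non-control spots were fitted, the line effects of these 4 spots lay between -0.08 and 0.07, with adjusted P-values of 1.0 by limma.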

How the data were processed

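Per the labels, RNA of whole blood from 48 pigs was labelled with Cy3 and hybridized to 1-colour 60-mer arrays. The authors deposited scanner files from Agilent Feature Extraction 10.7.3.1 with the intensity and the local background of each spot, and a table of log2 values for 37113 retained spots, made in R 3.0.2. On 47 arrays the deposited log2 value equalled the scanner's log2 median intensity centred on the array median, within 5e-14, so no background had been subtracted. The thresholds of the spot filter and a genome build are not given in the sources used here, and no coordinates are printed. In the column of high RFI HF replicate 1 a value of 2.71 was repeated and 37088 entries differed, so this column was rebuilt from its scanner file.

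Line, diet and interaction were estimated with limma 3.58.1 (R 4.3.3) to 37113 spots and to 27742 gene names, with Benjamini-Hochberg adjustment over all. A call is an adjusted P-value under 0.05. On simulated data for the line effect on 37113 spots, 43%, 86% and 98% of changes of 0.25, 0.5 and 1 (log2) were recovered, with 30 false calls. The simulated noise was drawn independently for each spot, without the variation that spots share over pigs. These shares therefore need not hold for the real data. Correlations used values with group means subtracted and 100000 permutations within groups (Python 3.11.15, numpy 2.4.6, pandas 2.3.3, scipy 1.17.1, matplotlib 3.10.9). Probe intensities limit the precision, and nothing else in the files measures depth.

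The members and the gene and marker lists were chosen with earlier results of these data known. Named were all members, listed genes with an adjusted P-value under 0.05 or a P-value under 0.01, and LSS, SREBF1, INSIG2 and SCAP. Also named were ELOVL5, for a called spot, and for each member the 3 genes outside the members with the highest r. Some listed genes enter the counts and medians but are not reported here by name. The 8 marker lists were erythroid, neutrophil, monocyte, B cell, T cell, NK and cytotoxic, platelet and proliferation. Slides (6, with 2 arrays of each group) and scan days (3) were tried as blocks. Alternatives were other tests, background corrections, normalizations, spot filters and the brightest spot, leaving that pig out, and using its column as deposited. The P-values take pigs as replicates. Blood counts and qPCR were not analysed here.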

Additional observations from a re-analysis of the deposited data

Results flagged for a closer look

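Among the 5 members and the 46 other names of the pathway, the interaction of line and diet was under an unadjusted P-value of 0.05 for 2, MYLIP and INSIG2, against 2.24% of all gene names. For MYLIP the diet effect (HF minus LF) was 0.14 in low RFI and -0.30 in high RFI pigs, an interaction of 0.44 on the log2 scale (P-value 0.0051, adjusted P-value 0.89 by limma). For INSIG2, a homolog of INSIG1, it was -0.14 in low RFI and 0.07 in high RFI pigs, an interaction of -0.21 (P-value 0.035, adjusted P-value 0.89 by limma). Neither passes correction over all gene names.

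The FDPS spot A_72_P661524 was left out of the retained table although it was well above background on 48 of 48 arrays, with median pixel intensities of 152 to 576. Its line effect in the fit over all non-control spots was -0.09 (95% confidence interval -0.24 to 0.06), beside -0.10 and -0.04 at the retained FDPS spots.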

How the results depend on the processing

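Over the alternatives, 96 of 110 counts stayed within 1.5 times the value given above. The count of member spots called for line, 1 as fitted, was 2 with a trended and robust prior or with spots well above background on every array, 4 with scan day as a block or with normexp and quantile normalization, 5 with slide as a block or with the background-corrected signal, 6 with that signal scaled to the 75th percentile, and 0 with the column as deposited. That column also gave 3 spots past the criterion of the methods, 0 member genes and 0 other cholesterol genes, and the brightest spot gave 0 member genes. Within low RFI pigs 3 pairs of members passed. The replicate block, with the number of the labels as a block, gave 5 called member spots and 1 called gene, and changed no other count by over 1.5 times. Same-numbered pigs shared a slide, with a median r of 0.20 against -0.0301 for others, but 44 of 72 same-numbered pairs were over 0.1 and 22 of 48 pigs were closest to their own number, so the numbers were not taken to pair the pigs. With the brightest spot, r of INSIG1 turned to -0.20 with SQLE, -0.17 with FDFT1 and -0.35 with FDPS. With 1 spot per gene, chosen after seeing the data, A_72_P186291 gave -0.24, -0.22 and -0.29 for INSIG1, and O8965 gave 0.67, 0.57 and 0.68 for SREBF2. These 9 reversals follow from using 1 of 2 unlike spots. The cause of the other changes was not tested. Of 893 values of single genes, spots and pairs, 833 kept their direction and side of the threshold. Low signal limits HMGCS1, IDI1 and DHCR7, which had no retained spot.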
